A study of Mus musculus with 12 samples.

Results

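Hyaluronan is a long, unbranched sugar polymer of the extracellular matrix that is built at the plasma membrane by hyaluronan synthases, bound at cell surfaces by receptors, and cut into fragments by hyaluronidases. Lymphatic vessels carry hyaluronan away from tissues, and lymphatic endothelial cells (LECs) are known for a hyaluronan receptor of their own, Lyve1, together with the scavenger receptors Stab1 and Stab2. Described here are 9 genes chosen by symbol, namely the receptors Lyve1, Stab1, Stab2 and Cd44, the synthases Has1, Has2 and Has3, and the hyaluronidases Hyal1 and Hyal2. They are 9 of the 52636 genes with a row in the count files, and each of the 9 passed the filter on low counts that left 21440 genes for testing.

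The libraries hold RNA of lung cells sorted from Prox1-EGFP mice, a reporter strain in which regulatory sequence of the lymphatic transcription factor gene Prox1 drives green fluorescent protein. The sort took live cells that were positive for CD31 and for the reporter and negative for EPCAM and a lineage cocktail. There were 2 libraries of acute cigarette smoke (CS) exposure, 2 of acute room air (RA), 5 of chronic CS and 3 of chronic RA. Whole-body exposure began at 6 weeks of age and lasted 8 weeks (acute) or 24 weeks or more (chronic), with RA mice of matched age. Each acute library pooled cells of 2 to 5 mice, whereas chronic libraries were not pooled, so pooling, age and duration cannot be told apart between time points. The acute mice carry an age label of 8 weeks and the chronic mice the label Aged. Libraries are named F or M by the sex label, with a number where the labels give one, and each group had 1 female library.

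Total counts lay between 18821438 and 56998590 per library. The sum of 7 lymphatic endothelial markers lay between 15797 and 22213 CPM (counts scaled to a common library size with edgeR's TMM factors) in RA libraries and between 14509 and 20353 CPM in chronic CS, and none of the 7 was under 1 CPM throughout a group. In acute CS the sum was lower, at 6192 CPM in F and 9260.5 CPM in M. Markers of other cells were also present. A leukocyte list of 9 genes summed to 263 and 265 CPM in acute RA and to 2464 CPM in F and 1761 CPM in M of acute CS. An alveolar epithelial list of 9 genes summed to 6454 CPM in the female acute CS library and to 260.2 CPM in the male one, so that acute CS F stood apart, and the members' acute comparisons are given with and without it. In these bulk samples fewer cells of a type and less RNA per cell cannot be told apart.

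Stabilin-1 and stabilin-2, encoded by Stab1 and Stab2, are large scavenger receptors, of which stabilin-2 is the endocytic receptor that clears hyaluronan in liver sinusoids and lymph nodes. Both genes fell after acute CS, and neither passed the test after chronic CS. The gene Stab1 (ENSMUSG00000042286, protein coding, chromosome 14, 31139013 to 31168641, minus strand of GRCm38) was counted at 1671 CPM in F and 1791 CPM in M of acute RA. The acute CS libraries gave 853 CPM in F and 910.2 CPM in M. Both CS libraries lay below both RA libraries, and within each sex the CS library was the lower. The log2 fold change was -0.97 (SE 0.14), with a Benjamini-Hochberg adjusted p of 0.00670 in the quasi-likelihood F-test of edgeR.

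The gene Stab2 (ENSMUSG00000035459, protein coding, chromosome 10, 86841198 to 87008025, minus strand) was counted at 657 CPM in F and 664 CPM in M of acute RA. The levels in acute CS were 238 CPM in F and 249 CPM in M. The groups were far apart relative to the spread within each, with means of 660.4 ± 5.02 CPM (SD, n = 2) in RA and 243 ± 8.32 CPM (SD, n = 2) in CS. These SDs are between pools and not between mice. In the unpooled chronic libraries the SD was 45.5 CPM in RA and 74.2 CPM in CS. The acute log2 fold change of Stab2 was -1.44 (SE 0.20, edgeR's Benjamini-Hochberg adjusted p = 0.00570), a 2.71-fold lower level. Without acute CS F, the values were -0.93 for Stab1 (adjusted p = 0.0478 from edgeR) and -1.40 for Stab2 (adjusted p = 0.0436). Neither passed without acute RA M (adjusted p = 0.0860 for Stab1 and 0.0766 for Stab2), and Stab1 did not pass with only the acute groups fitted (0.0811).

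Cd44 encodes a widely expressed hyaluronan receptor that is abundant on leukocytes and activated cells. It rose after acute CS by the widest margin among the receptors. The gene (ENSMUSG00000005087, protein coding, chromosome 2, 102811141 to 102901665, minus strand) was counted at 9.21 CPM in F and 12.5 CPM in M of acute RA. After acute CS the level was 198 CPM in F and 142 CPM in M. Every CS library exceeded every RA library at this time point. The log2 fold change was 3.97 (SE 0.70, edgeR's Benjamini-Hochberg adjusted p = 0.0125), a 15.7-fold higher level. Without acute CS F it was 3.72 (adjusted p = 0.0630 from edgeR), which did not pass, nor did it pass without acute RA F or acute RA M (0.142 and 0.120).

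Markers of several cell types moved with these receptors in acute CS. The shares of all genes that passed, 2.75% as higher and 0.723% as lower, stand beside these lists as background. Of the 7 lymphatic markers 4 passed as lower. All 7 were wholly lower, as were 22.5% of all genes, and their median log2 fold change was -1.08. In the leukocyte list 8 of 9 genes passed as higher. The alveolar macrophage list of 10 genes summed to 51.6 and 112 CPM in acute RA and to 1860.0 and 1879 CPM in acute CS, with 3 genes passing as higher. No leukocyte gene and no alveolar macrophage gene was at 0 throughout a group. The blood endothelial list of 10 genes summed to 2904 and 3705 CPM in acute RA and to 6801 and 7895 CPM in acute CS, with 7 passing as higher. In the mesenchymal list 6 of 10 genes passed as higher, and its sum was 138 and 210.0 CPM in acute RA and 647 and 1026 CPM in acute CS. With acute CS F left out, the genes passing as higher were 5 of the leukocyte, 1 of the alveolar macrophage, 3 of the blood endothelial and 2 of the mesenchymal list, and 1 lymphatic marker passed as lower, where 0.768% of all genes passed. The part of these markers in the values of Cd44, Stab1 and Stab2 was not tested.

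The sequences upstream of these 3 receptors are shown because they are the members that passed the test after acute CS. They are RefSeq promoter windows of GRCm38.p6 on the minus strand, ending just before the annotated start site, with the transcribed part left out. Of the 9 genes 6 had a window. For Stab2 the GENCODE gene begins 83 bases before the RefSeq start, and those 83 bases are not printed. Capitals mark AGGAAG, the core of many ETS factor sites, on either strand, and in Stab1 also CCAAT on the antisense strand, and no match overlapped another.
Stab1, chr14:31168642-31168891: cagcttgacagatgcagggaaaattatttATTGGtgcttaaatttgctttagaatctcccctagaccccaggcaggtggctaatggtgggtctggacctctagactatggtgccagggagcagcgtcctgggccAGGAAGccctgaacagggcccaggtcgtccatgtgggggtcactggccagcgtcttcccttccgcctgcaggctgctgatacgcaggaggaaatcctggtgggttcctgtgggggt
Stab2, chr10:87008026-87008192: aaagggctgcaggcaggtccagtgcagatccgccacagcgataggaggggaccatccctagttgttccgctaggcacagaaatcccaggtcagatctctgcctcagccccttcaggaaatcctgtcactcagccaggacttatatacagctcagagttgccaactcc
Cd44, chr2:102901666-102901915: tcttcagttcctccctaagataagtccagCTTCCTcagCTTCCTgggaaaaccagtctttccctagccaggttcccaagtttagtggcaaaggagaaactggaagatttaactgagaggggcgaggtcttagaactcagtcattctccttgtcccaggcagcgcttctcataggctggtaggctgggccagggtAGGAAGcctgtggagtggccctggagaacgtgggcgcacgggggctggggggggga

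Within 250 bases before the RefSeq start, AGGAAG or its reverse complement occurred in all 3 windows, with the first base at -116 in Stab1, at -40 in Stab2 (in the unprinted stretch) and at -221, -212 and -56 in Cd44. It occurs in 29.5% of the 32851 mouse promoter windows of that length. CCAAT was found in Stab1 alone, at -221, and occurs in 33.8% of all windows. The letters TATAAA of the classical core promoter element, read on both strands, were in none of these windows and occur in 12.4% of all windows. Likewise absent were the letters GGGCGG of the GC box, which occur in 32.7%, and the letters TGACTCA of AP-1 sites, which occur in 4.46% of all windows. These matches describe letters only.

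Lyve1, the receptor after which lymphatic vessels are often identified, did not pass the test with edgeR in any comparison, although it was among the most abundant of the 9 genes per length. The gene (ENSMUSG00000030787, protein coding, chromosome 7, 110850607 to 110863239, minus strand) was counted at 443 CPM in F and 536 CPM in M of acute RA, and at 568 CPM in F and 986 CPM in M of acute CS. The acute groups did not overlap, but the CS libraries differed widely, with 777 ± 295 CPM (SD, n = 2). The log2 fold change of 0.67 (SE 0.30) did not pass with edgeR (Benjamini-Hochberg adjusted p = 0.307). It rested on which CS library was kept, at 1.01 (adjusted p = 0.211) without acute CS F and 0.22 (adjusted p = 0.889) without acute CS M.

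**Figure D1:**
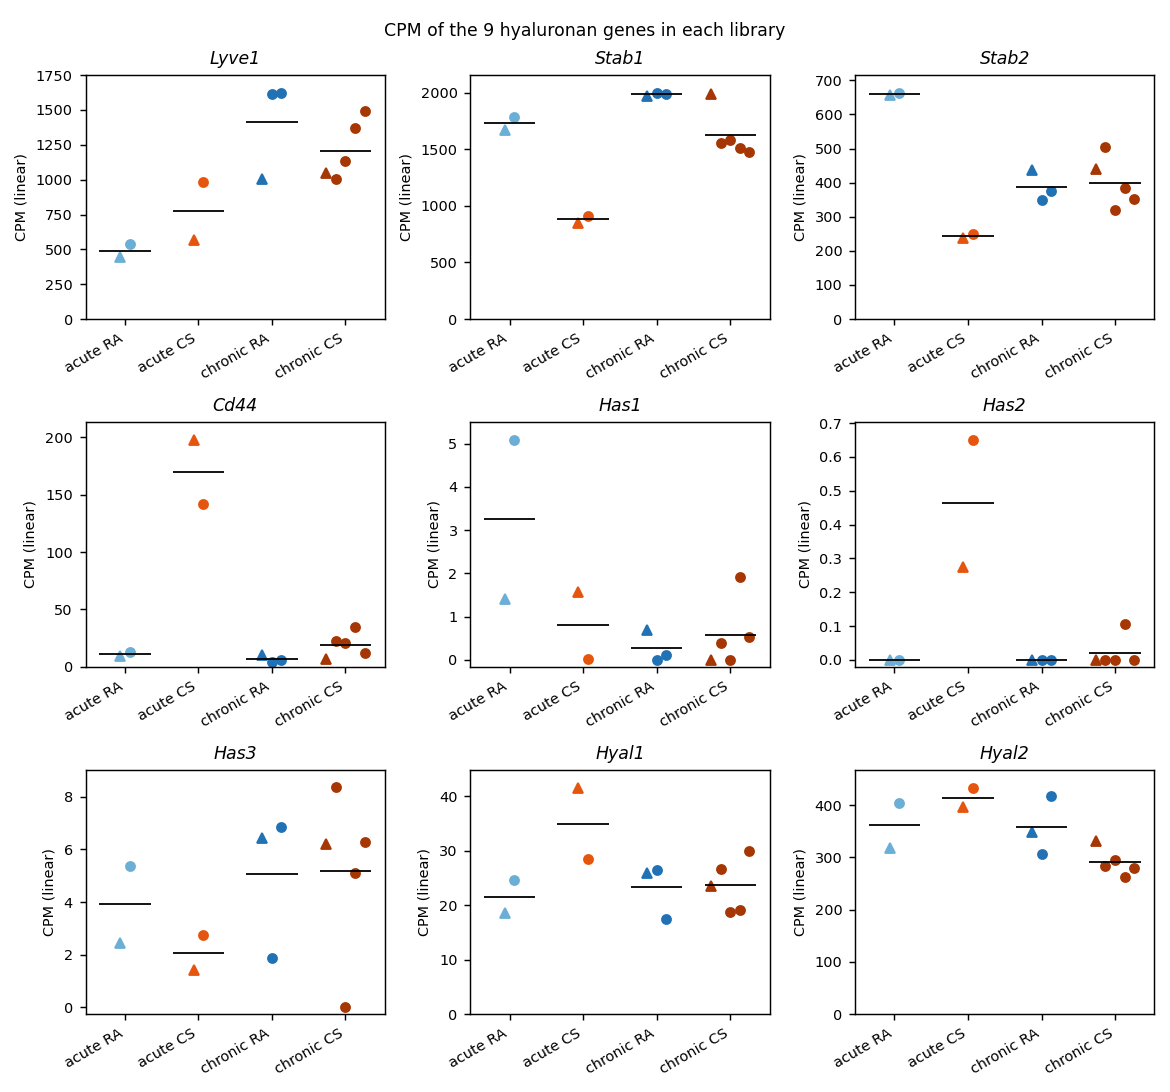
CPM (linear axis from 0) of each of the 9 genes in 12 libraries by group. Triangles are female and circles male libraries, and bars are group means. Cd44 lies at 142 to 198 CPM in acute CS and at most 34.7 CPM elsewhere, while Stab1 and Stab2 are at their lowest in acute CS.

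Among the synthases, which polymerise hyaluronan from UDP sugars, none passed the test and none exceeded 10 CPM in a library. Has2, the main synthase of many mesenchymal cells (chromosome 15, 56665627 to 56694539, minus strand), had no read in either acute RA library. It had 14 reads in F and 30 reads in M of acute CS, which correspond to 0.275 and 0.651 CPM. Against a floor of 3 counts per RA library this was at least 8.61-fold higher, with an adjusted p of 0.224 from edgeR with Benjamini-Hochberg adjustment (0.490 without acute CS F). In the 8 chronic libraries it had 5 reads in chronic CS M3 and none in the others, so that no difference was detectable at this depth. The mesenchymal marker sum also moved with Has2. The mesothelial sum went from 6.30 and 28.0 CPM in acute RA to 82.0 and 126 CPM in acute CS, where 88.1% of it was Krt19, a gene that epithelia also express. Of its 5 genes tested none passed and 1 was wholly higher, as were 27.4% of all genes. Their median log2 fold change was 0.20, and -0.51 without acute CS F. Their part in the Has2 reads was not tested.

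Has1 (chromosome 17, 17843323 to 17855205, minus strand) was counted at 1.42 CPM in F and 5.09 CPM in M of acute RA, and at 1.57 CPM in F and 0.0217 CPM in M of acute CS. In chronic RA it lay between 0 and 0.689 CPM and in chronic CS between 0 and 1.91 CPM. The acute groups overlapped, and the log2 fold change of -2.02 had an SE of 2.27. Without acute CS F it was -7.02 (SE 3.82, edgeR's Benjamini-Hochberg adjusted p = 0.6251), with 1 read in acute CS M. Has3 (chromosome 8, 106870242 to 106884566, plus strand) lay at 2.45 and 5.37 CPM in acute RA, 1.41 and 2.75 CPM in acute CS, 1.87 to 6.85 CPM in chronic RA and 0 to 8.36 CPM in chronic CS. Chronic CS M2 had no Has3 read although the other chronic CS libraries were at 5.10 CPM or higher. The groups overlapped in both smoke comparisons, and the adjusted p-values of Has3 from edgeR with Benjamini-Hochberg adjustment were 0.868 in the acute and 0.996 in the chronic comparison. Its acute log2 fold change of -0.91 was -0.50 without acute CS F and ranged from -1.47 to -0.27 with 1 library left out.

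The hyaluronidases differed widely in level. Hyal2 (ENSMUSG00000010047, chromosome 9, 107567945 to 107572779, plus strand) encodes a membrane-anchored enzyme that makes large fragments at the cell surface, and Hyal1 (ENSMUSG00000010051, chromosome 9, 107576927 to 107581710, plus strand) encodes the lysosomal enzyme that degrades them further. Hyal2 was counted at 319 and 404 CPM in acute RA and at 396 and 433 CPM in acute CS, which overlapped, with a log2 fold change of 0.20 (SE 0.17, edgeR's Benjamini-Hochberg adjusted p = 0.690) that ranged from 0.04 without acute RA F to 0.35 without acute RA M and was 0.26 without acute CS F. Hyal1 was counted at 18.5 CPM in F and 24.6 CPM in M of acute RA and at 41.6 CPM in F and 28.4 CPM in M of acute CS. Its acute groups did not overlap, but its log2 fold change of 0.70 (SE 0.31) did not pass with edgeR (Benjamini-Hochberg adjusted p = 0.301). Without acute CS F it was 0.40 (SE 0.36, adjusted p = 0.833), and without acute CS M it was 0.95. Of the 3777 exon bases of Hyal1, 1920 are shared with Naa80 and 159 with Hyal3 on the same strand, so its count is uncertain.

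Of the 9 genes 3 passed in the acute comparison, 1 higher and 2 lower, where 3.47% of all tested genes passed (2.75% higher and 0.723% lower). At an unadjusted p under 0.05 the count was 6 of 9, against 15.7% of all genes, and with DESeq2 3 of 9 passed, against 10.9% of the genes with an adjusted p. The acute CS libraries lay wholly above the RA libraries for 4 members (Lyve1, Cd44, Has2 and Hyal1), as for 27.4% of all genes, and wholly below for Stab1 and Stab2, as for 22.5% of all genes, 49.9% together. Has2 is counted among the 6 and among these 4, although it passed the filter on low counts only through its acute CS reads. The median log2 fold change was 0.20 over the 9 genes, 5 positive and 4 negative, and 0.04 over all tested genes. Has2 is among the 5, and the sign of the members' median rests on it. Without acute RA M no member passed, and 0.013% of all genes did in that fit. With 1 library left in a group, its spread is taken from the other groups.

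**Figure D2:**
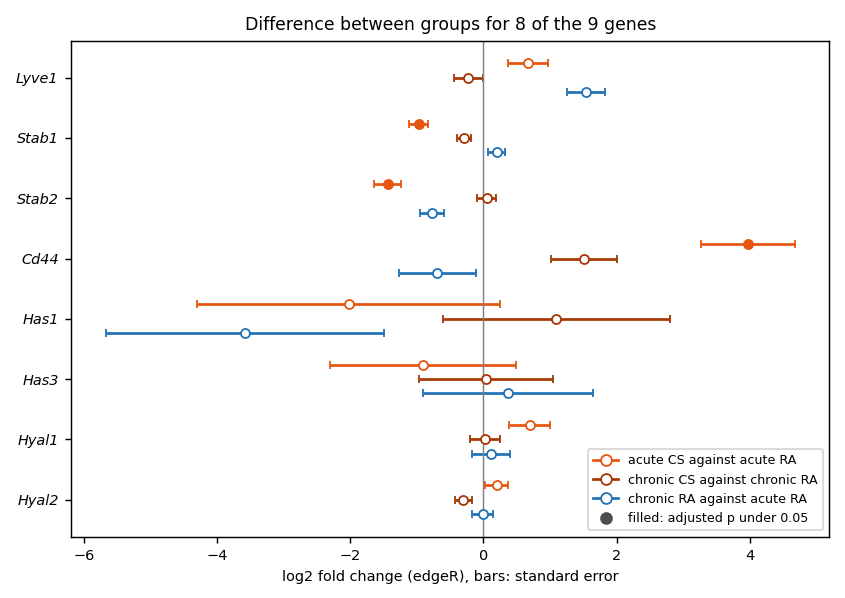
Log2 fold changes from edgeR (horizontal axis) with standard errors for 8 of the 9 genes in 3 comparisons, where filled points have an adjusted p under 0.05. The acute values of Stab1 (-0.97), Stab2 (-1.44) and Cd44 (3.97) are the filled points. Has2 is left out because its fold change rests on libraries at 0.

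After chronic CS no member passed with edgeR, and 0% of all tested genes did. At an unadjusted p under 0.05 there were 3 of 9 members (Stab1, Cd44 and Hyal2) against 10.9% of all genes, and with DESeq2 1 member passed (Cd44), against 2.91% of the genes with an adjusted p. Cd44 was counted at 10.3, 3.66 and 6.14 CPM in chronic RA F, M1 and M2. In the chronic CS libraries F and M1 to M4 it was at 6.67, 22.1, 20.2, 34.7 and 11.7 CPM. The 4 male CS libraries lay above the RA libraries and the female CS library lay among them. The log2 fold change was 1.51 (SE 0.49, adjusted p = 0.347 from edgeR and 0.0339 from DESeq2, both with Benjamini-Hochberg adjustment). The leukocyte sum lay between 177 and 260.0 CPM in chronic RA and between 173 and 449 CPM in chronic CS, which overlapped, and 8 of its 9 genes had a positive log2 fold change, 4 of them at an unadjusted p under 0.05. Like Cd44, this sum was lowest in chronic CS F and highest in M3 within that group. The alveolar macrophage sum lay between 22.2 and 103 CPM in chronic RA and between 62.8 and 379 CPM in chronic CS, with 9 of 10 genes positive, 4 at an unadjusted p under 0.05 and a median log2 fold change of 1.89. The alveolar epithelial sum lay between 249.7 and 472 CPM in chronic RA and between 916 and 4578 CPM in chronic CS, and the mesenchymal sum between 122 and 154 CPM and between 214 and 347 CPM, so that neither overlapped. No gene of these 4 lists passed with edgeR, while 8 of 9 alveolar epithelial and 8 of 10 mesenchymal genes had an unadjusted p under 0.05. Their part in the chronic values of Cd44, Stab1 and Hyal2 was not tested.

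Stab1 was counted at 1977, 2002 and 1986 CPM in chronic RA F, M1 and M2. In the chronic CS libraries F and M1 to M4 it was at 1991, 1555, 1586, 1509 and 1479 CPM. The male CS libraries lay below the RA libraries, which lay close together, and the female CS library lay among them. The log2 fold change was -0.29 (SE 0.10, edgeR's Benjamini-Hochberg adjusted p = 0.372).

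Stab2 lay between 349 and 438 CPM in chronic RA and between 318 and 506 CPM in chronic CS, a log2 fold change of 0.05 (SE 0.14) that lay between -0.04 and 0.15 with 1 library left out. Lyve1 lay between 1008 and 1625 CPM in chronic RA and between 1003 and 1492 CPM in chronic CS, a log2 fold change of -0.23 (SE 0.22) that ranged from -0.41 without chronic RA F to -0.11 without chronic RA M2. For Hyal2, chronic CS lay between 261 and 331 CPM and chronic RA between 307 and 418 CPM, so that only chronic CS F reached into the RA range (log2 fold change -0.30, SE 0.12, edgeR's Benjamini-Hochberg adjusted p = 0.424), and without chronic RA M2 the value was -0.17. Hyal1 lay between 17.5 and 26.5 CPM in RA and between 18.7 and 29.98 CPM in CS. Every member overlapped between the chronic groups, whereas 9.41% of all genes did not.

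The difference between the acute and the chronic effect of CS was tested as an interaction. Of the 9 members 1 passed (Stab2, lower), where 0.452% of all genes did in either direction and 0.0513% as lower. The acute effect on Stab2 was lower than the chronic effect by a log2 value of -1.49 (SE 0.25, edgeR's Benjamini-Hochberg adjusted p = 0.0406), and this call was lost under 11 of 18 alternatives, including each of acute RA F, acute RA M and acute CS F left out (adjusted p = 0.187, 0.1996 and 0.164). For Stab1 the difference was -0.68 (SE 0.18, adjusted p = 0.129) and for Cd44 it was 2.46 (SE 0.79, adjusted p = 0.223). Neither passed with edgeR, although both did with DESeq2 (adjusted p = 0.00493 and 0.0359), where 5.23% of the genes with an adjusted p passed. These values were -0.63 for Stab1 (adjusted p = 0.359 from edgeR) and 2.20 for Cd44 (0.494) without acute CS F. The lymphatic markers moved with Stab2 in this test, with all 7 negative and a median of -1.07. Of the 7 markers 6 had an unadjusted p under 0.05, against 11.9% of all genes. Among them Prox1 passed as lower (-1.09, SE 0.19, edgeR's adjusted p = 0.0406, and -0.96 with 0.178 without acute CS F). Markers of other cells moved with Cd44. Positive were 9 of 9 leukocyte genes, with a median of 2.86, and 3 of them passed as higher, where 0.401% of all genes did. So were 10 of 10 alveolar macrophage genes, with a median of 2.87. The part of these markers in the values of Stab2 and Cd44 was not tested.

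The RA controls of both time points were also compared, and they share the acute RA libraries with the acute comparison. No member passed with edgeR, as 0% of all genes did, while 2 of 9 had an unadjusted p under 0.05 against 7.01% of all genes. These were Lyve1 and Stab2, which also passed with DESeq2, against 1.55% of the genes with an adjusted p. Lyve1 was at 443 and 536 CPM in acute RA and at 1008 CPM in F, 1614 in M1 and 1625 in M2 of chronic RA. All 3 chronic RA libraries lay above both acute RA libraries, and the log2 fold change was 1.53 (SE 0.29, adjusted p = 0.215 from edgeR and 2.93e-05 from DESeq2). Stab2 was at 657 and 664 CPM in acute RA and at 438, 349 and 376 CPM in chronic RA F, M1 and M2. The groups did not overlap, and the log2 fold change was -0.77 (SE 0.18, adjusted p = 0.387 from edgeR and 0.00748 from DESeq2). Markers also moved between the controls. All 7 lymphatic markers were apart, 4 higher and 3 lower in chronic RA (median log2 fold change 0.40), and all 9 alveolar epithelial genes were negative, 6 of them wholly lower, with a median of -1.29. No gene of these 2 lists passed with edgeR, and their part in the values of Lyve1 and Stab2 was not tested. Lyve1 and Stab1 were wholly higher and Stab2 and Has1 wholly lower in chronic RA, where 34.7% of all genes did not overlap.

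Levels of different genes were compared per length as FPKM, from counts scaled by the TMM-adjusted library size and by the summed exon length of each gene. In acute RA, Stab1 (168 ± 8.22 FPKM, SD, n = 2) and Lyve1 (168 ± 22.6 FPKM) had the highest levels and overlapped. They were followed by Hyal2 (109.7 ± 18.3 FPKM), Stab2 (75.4 ± 0.573 FPKM), Hyal1 (5.71 ± 1.15 FPKM) and Cd44 (1.60 ± 0.340 FPKM), each apart from its neighbours. The synthases were below 1 FPKM on average in every group. In acute CS the order was Lyve1 (266 ± 101 FPKM), Hyal2 (126 ± 8.08 FPKM), Stab1 (85.7 ± 3.92 FPKM), Stab2 (27.8 ± 0.950 FPKM) and Cd44 (25.1 ± 5.79 FPKM), and the last 2 overlapped. Lyve1 led in both chronic groups, with 485 ± 121 FPKM (SD, n = 3) in RA and 414 ± 72.6 FPKM (SD, n = 5) in CS. It was followed there by Stab1, Hyal2 and Stab2 in that order, each apart from the next.

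As a share of the summed FPKM of the 4 receptors, Lyve1 made up 38.8% and 42.2% in acute RA. Its share was 58.3% and 71.0% in acute CS, 58.6% to 70.2% in chronic RA and 59.4% to 73.4% in chronic CS. Cd44 made up 0.348% and 0.423% in acute RA, 8.74% in F and 4.41% in M of acute CS, and at most 0.770% in a chronic library. Stab2 made up 17.4% and 19.2% in acute RA and between 5.05% and 10.4% in the other libraries. The acute RA libraries differed from all others in their shares of Lyve1, Stab1 and Stab2, and the acute CS libraries in that of Cd44. Shares of a total are not independent of one another, and no test was made of them.

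**Figure D3:**
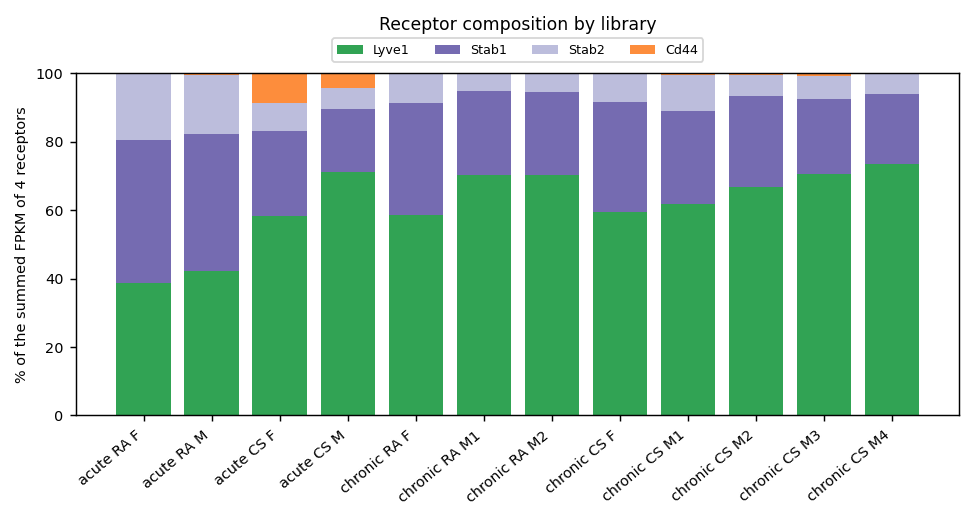
Share (%) of each of 4 receptor genes in their summed FPKM, as stacked bars by library. Lyve1 is at 38.8% and 42.2% in acute RA and at 58.3% or more in every other library, and the Cd44 segment is widest in acute CS (8.74% and 4.41%).

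To set the members against the cells the sort was made for, each member's log2 CPM was compared with the mean log2 CPM of 7 lymphatic markers (Prox1, Flt4, Pdpn, Mmrn1, Reln, Nrp2 and Itga9) in the same library. On this relative scale Stab1 was at 0.22 and 0.18 in acute RA F and M and at 0.58 and 0.14 in acute CS F and M, which overlapped, with a difference of 0.15 that turned to -0.06 without acute CS F and was 0.37 without acute CS M. Stab2 was at -1.12 and -1.25 in acute RA and at -1.27 and -1.73 in acute CS, a difference of -0.31, with -0.54 without acute CS F and -0.08 without acute CS M. Prox1 itself had a log2 fold change of -1.03 (SE 0.16, edgeR's Benjamini-Hochberg adjusted p = 0.00797) in that comparison, and -0.90 (adjusted p = 0.0601) without acute CS F. The differences were 5.09 for Cd44, 1.81 for Hyal1, 1.75 for Lyve1 and 1.33 for Hyal2, with both acute CS libraries above both acute RA libraries. These became 4.59, 1.27, 1.88 and 1.13 without acute CS F. The 7 markers themselves fell in acute CS (median log2 fold change -1.08), so a gene with unchanged CPM also lies higher on this scale. From edgeR the log2 fold changes of Cd44, Hyal1, Lyve1 and Hyal2 were 3.97, 0.70, 0.67 and 0.20, and only Cd44 passed. The exact two-sided permutation test could not go below p = 0.333 with 2 against 2 libraries, and gave that value for Lyve1, Stab2, Cd44, Hyal1 and Hyal2.

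After chronic CS the relative level of Cd44 differed by 1.59 (exact two-sided permutation p = 0.0714, where 0.0357 is the smallest that 5 against 3 libraries allow). The other 5 members tested differed by between -0.12 and 0.21, with exact permutation p-values from 0.393 to 0.857. Between the RA controls, Lyve1 differed by 1.33 and Stab2 by -0.95, both at the smallest exact permutation p of 0.2. Has1 and Has2 were left out because a library of each comparison was below 3 counts, as was Has3 in the chronic comparison.

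**Figure D4:**
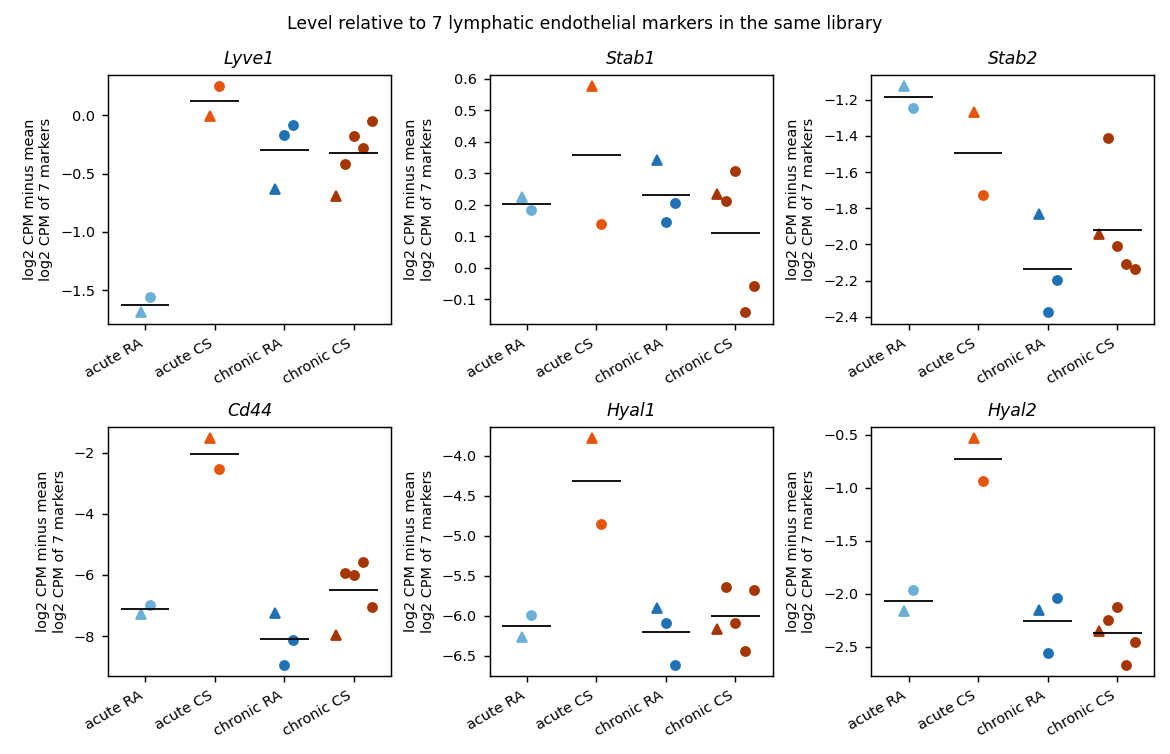
Log2 CPM of 6 members minus the mean log2 CPM of 7 lymphatic endothelial markers in the same library, by group (triangles female, circles male, bars group means). Stab1 overlaps between acute RA and acute CS, with a difference of means of 0.15, whereas Cd44 differs by 5.09. The 7 markers were themselves lower in acute CS.

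Macrophages of the lung interstitium are known to carry Lyve1 and stabilin-1, so their markers are given beside these genes. The interstitial macrophage list of 10 genes summed to 676 and 808 CPM in acute RA and to 1041 CPM in F and 517 CPM in M of acute CS, of which Mrc1, which LECs also express, made up 87.3% in acute RA and 43.4% in acute CS on average. Without Mrc1 the sum was 44.6 and 145 CPM in acute RA, 106 and 776 CPM in acute CS, 17.7 to 38.3 CPM in chronic RA and 53.0 to 328 CPM in chronic CS. Of 9 genes of the list tested in the acute comparison 8 had a positive log2 fold change. Wholly higher were 6 of them, as were 27.4% of all genes. Their median log2 fold change was 3.24, and 1.37 without acute CS F. With all libraries only Mrc1 passed, as lower. Folr2, which marks a subset of these macrophages, was under 1 CPM in every acute library and had no read in chronic RA. Their part in the values of Lyve1 and Stab1 was not tested.

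The other genes of the pathway were counted from a list of 38, of which 28 passed the filter. In the acute comparison 2 of 28 passed, 1 higher and 1 lower, where 3.47% of all genes passed (2.75% higher and 0.723% lower). Their median log2 fold change was 0.11, against 0.04 over all genes. Cemip2, which encodes a cell surface protein described as a hyaluronidase, was counted at 179 and 146 CPM in acute RA and at 498 and 420.2 CPM in acute CS. It rose in both sexes, with a log2 fold change of 1.49 (SE 0.23, edgeR's Benjamini-Hochberg adjusted p = 0.00824). Ptx3, which encodes a pentraxin that cross-links hyaluronan matrix, was counted at 636 and 617 CPM in acute RA and at 212 and 340.0 CPM in acute CS. It fell in both sexes, with a log2 fold change of -1.18 (SE 0.26, adjusted p = 0.0296 from edgeR). Neither passed without acute CS F (adjusted p = 0.0535 for Cemip2 and 0.249 for Ptx3), without acute RA F (0.0575 and 0.170) or without acute RA M (0.1102 and 0.163), and Ptx3 did not pass without chronic RA M2 (0.0514).

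By role, none of 5 other receptors passed in the acute comparison. Layn, the hyaluronan receptor layilin, was at 81.2 to 86.2 CPM in acute RA and at 37.4 to 60.5 CPM in acute CS (log2 fold change -0.77, SE 0.22, edgeR's Benjamini-Hochberg adjusted p = 0.0839). This rested on which CS library was kept, at -0.47 (adjusted p = 0.494) without acute CS F and -1.16 (adjusted p = 0.0158, which passed) without acute CS M. Tlr2, an innate immune receptor, was at 79.0 to 83.1 CPM and at 99.4 to 128 CPM (0.49, SE 0.21, edgeR's adjusted p = 0.285, and 0.30 without acute CS F). Of 11 matrix partners tested 1 passed (Ptx3), and Itih5, an inter-alpha-trypsin inhibitor heavy chain gene, overlapped between groups (-0.36, SE 0.37). None of 7 genes for UDP sugar precursors passed. Among them were Ugdh, which makes UDP-glucuronic acid (0.03, SE 0.21), and Ugp2, which makes UDP-glucose (0.41, SE 0.26). Of 5 other breakdown genes 1 passed (Cemip2), and Hexa, a lysosomal hexosaminidase gene, was at 242 and 321 CPM in RA and at 230.4 and 312 CPM in CS.

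After chronic CS none of the 28 passed with edgeR or DESeq2, and 4 had an unadjusted p under 0.05, against 10.9% of all genes. The median log2 fold change was -0.04, against 0.01 over all genes. Ptx3 lay between 277 and 482 CPM in chronic CS and between 489 and 634 CPM in chronic RA, which did not overlap, as 5.49% of all genes were wholly lower (log2 fold change -0.51, SE 0.18, edgeR's Benjamini-Hochberg adjusted p = 0.383). Cemip2 lay between 182 and 303 CPM in chronic CS and between 169 and 183 CPM in chronic RA, a log2 fold change of 0.29 (SE 0.17) that was 0.13 without chronic CS M2. In chronic CS Hexa lay between 227 and 296 CPM, below the 326 to 342 CPM of chronic RA (-0.38, SE 0.13, adjusted p = 0.372).

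**Figure D5:**
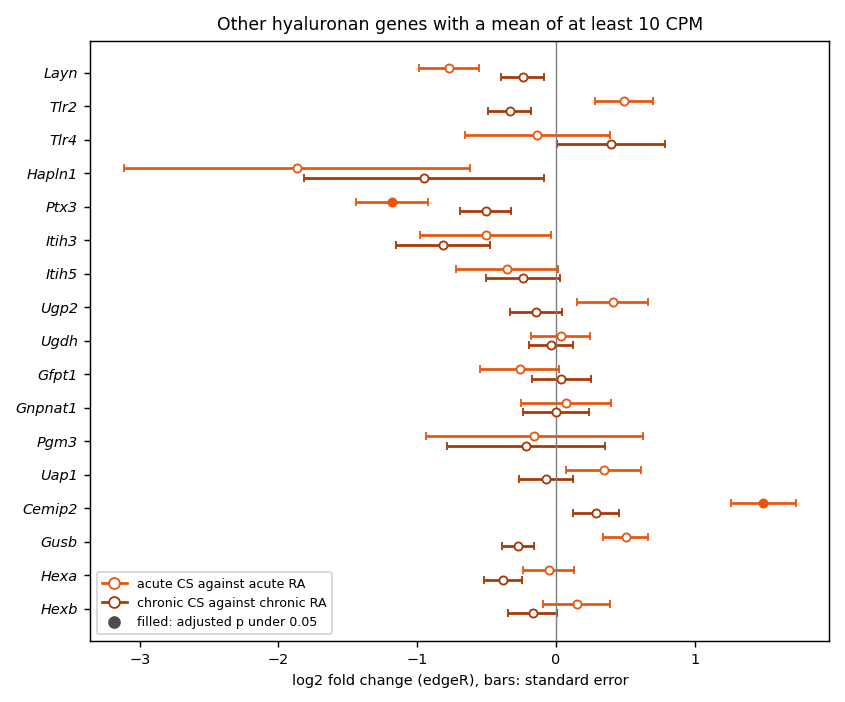
Log2 fold changes from edgeR (horizontal axis) with standard errors after acute and chronic CS for the 17 other hyaluronan genes with a mean of at least 10 CPM, where filled points have an adjusted p under 0.05. The filled points are the acute values of Ptx3 (-1.18) and Cemip2 (1.49).

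For each member with a mean of at least 10 CPM, the tested genes with the most similar pattern over the 12 libraries were found by the root mean square difference of log2 CPM after centring each gene, among 9595 genes with a mean of at least 10 CPM. For Lyve1 these were Ptger2 (0.24), Galnt15 (0.30) and C3 (0.32). For Stab1 they were Galnt18 (0.12), Tspan18 (0.13) and Cul7 (0.14), and for Stab2 Abcc9 (0.21), Hivep3 (0.23) and Ip6k2 (0.23). For Cd44 they were Tyrobp (0.39), Laptm5 (0.41) and Myof (0.41), of which Tyrobp and Laptm5 are also in the leukocyte list. For Hyal1 they were Ap1s2, Arl15 and Stk38 (0.20 to 0.21), and for Hyal2 Mfsd5, Tnfrsf1a and Ppp1r35 (0.12 to 0.14). The members' own root mean square deviations were 0.61 for Lyve1, 0.40 for Stab1, 0.45 for Stab2, 1.67 for Cd44, 0.34 for Hyal1 and 0.24 for Hyal2.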

How the data were processed

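RNA of LECs sorted from lungs of Prox1-EGFP mice was measured in 12 libraries of polyadenylated RNA made with a SMART-Seq kit. The authors checked the reads (FastQC 0.11.9, Minion), trimmed them with Skewer, aligned them to GRCm38 with STAR and deposited the raw count of each Ensembl gene from its GeneCounts mode, with no scaling. The strand setting is not given in the sources used here, and reads in overlapping genes cannot be assigned to either partner with certainty. Gene names, positions and exon lengths came from GENCODE M21, in which 147 of 52636 rows were not found. The lymphatic marker Ccl21a, whose symbol has more than 1 identifier, was left out. The members and lists were chosen with earlier results of these data known.

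The test was run with edgeR 4.0.16 in R 4.3.3 (TMM factors, filter by expression, quasi-likelihood F-test over all 12 libraries in 4 groups) and Benjamini-Hochberg adjustment over 21440 genes at a limit of 0.05, and the fit was tested on simulated data. The SE given with an edgeR log2 fold change is its absolute value divided by the square root of the F statistic. CPM and FPKM were computed from the deposited counts with TMM factors. Log2 CPM carried a prior count of 2. Deviations of same-labelled libraries of the 2 treatments were only weakly correlated, and no replicate block was used in the primary analysis. Depth was 18821438 to 56998590 counts, at which 3 counts are 0.158 to 0.0507 CPM, a floor for counting error only. Nothing in the labels says that libraries came from separate cohorts, so p-values measure the spread between these libraries. Groups were taken from the labels, and exposure times from the study's methods.

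Named were the 9 members, the genes of the pathway list that passed in any comparison, the 2 genes with the highest mean CPM in each of its 4 roles, the 3 genes most like each member with a mean of at least 10 CPM, and cell type markers as sums with Prox1, Ptprc, Chil3, Epcam and Folr2. Bcan, Gusb, Hapln1, Krt19 and Mrc1 are named after their values were seen, as is the list without Mrc1. Alternatives were DESeq2 1.42.0, scaling by library size alone, no filter, a fit of only the groups compared, a sex covariate, a replicate block, robust estimation, each library left out, and subsets of chronic CS. For levels relative to lymphatic markers they were Prox1 alone and a prior count of 0.5.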

Additional observations from a re-analysis of the deposited data

Results flagged for a closer look

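The acute and the chronic effect of CS on Stab2 differed by a log2 value of -1.49 in the interaction test of edgeR (Benjamini-Hochberg adjusted p = 0.0406), with lower levels in 2 of 2 acute CS libraries and overlapping levels in the chronic groups. The call was lost under 11 of 18 alternatives. Prox1, the lymphatic marker, had an interaction of -1.09 with the same adjusted p of 0.0406 in that test.

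Single libraries lay far from the others of their group for 3 members in chronic CS, the only group of more than 3 libraries. Stab1 was highest in chronic CS F, at 1991 CPM against 1479 to 1586 CPM in the 4 male libraries. Has1 was highest in M3, at 1.91 CPM. Has2 had reads in M3 alone, at 0.107 CPM, with no read in the other 4 libraries. With the other libraries at 0, any read in 1 library sets it apart, so this gap for Has2 says nothing, and 2 of the 5 Has1 libraries were also at 0. For measures without such zeros a gap of this kind arises by chance in about 1 of 20 groups, and 9 groups were examined.

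Ptprc, which encodes the leukocyte antigen CD45, a marker of cells that the lineage cocktail was set to remove, had a log2 fold change of 3.48 after acute CS (SE 0.61, edgeR's Benjamini-Hochberg adjusted p = 0.0121). For Chil3, a marker of alveolar macrophages, it was 4.501 (SE 1.16, adjusted p = 0.0628), and for Epcam it was 2.91 (SE 1.61, adjusted p = 0.442). Without acute CS F the values were 2.97 for Ptprc (adjusted p = 0.0696), 4.53 for Chil3 (0.188) and 0.91 for Epcam (0.977). Their part in the values of the members was not tested.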

How the results depend on the processing

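No result that passed changed its direction under any alternative. With DESeq2 3 members passed after acute CS and 1 after chronic CS (Cd44). Between the RA controls 2 members passed (Lyve1 and Stab2), and in the interaction 3 did (Stab1, Stab2 and Cd44). Pathway genes passing were 5 after acute CS (Cemip2, Ptx3, Layn, Gusb and Bcan) and 2 in the interaction (Cemip2 and Gusb). Of the genes with an adjusted p, 10.9% passed after acute CS and 2.91% after chronic CS. The shares were 1.55% between the RA controls and 5.23% in the interaction. Bcan had no read in acute RA, 4 reads in acute CS F and 47 in M. With only the acute groups fitted, 0 pathway genes passed, where 0.701% of all genes did. The log2 fold changes were -0.99 for Stab1, -1.20 for Ptx3 and 1.48 for Cemip2, none of which passed. Cd44 and Stab2 still passed in that fit (edgeR's Benjamini-Hochberg adjusted p = 0.0319 and 0.0440). With sex as a covariate 0 members passed in the interaction (Stab2 -1.50), where 0.0979% of all genes did. With chronic CS M3 and M4 only, 1 pathway gene passed after chronic CS (Hapln1), where 0.0759% of all genes did. With Prox1 alone as the reference, 1 member (Stab1 after chronic CS, -0.35) was at an unadjusted exact permutation p of 0.0357, the smallest that 5 against 3 libraries allow. The cause of these changes was not tested.

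Leaving out 1 library gave 0 to 3 members and 0 to 3 pathway genes after acute CS and 0 to 1 members in the interaction, in fits that called 0.013% to 4.51% and 0% to 1.14% of all genes. Log2 fold changes after acute CS then ranged from -1.02 to -0.93 for Stab1, -1.48 to -1.40 for Stab2, 3.72 to 4.19 for Cd44, -1.56 to -0.88 for Ptx3 and 1.32 to 1.65 for Cemip2, and the interaction of Stab2 from -1.62 to -1.45. With a library left out of the relative comparisons, the exact tests could in no case go below 0.05 and say nothing of stability.

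With a replicate block of libraries sharing sex and number, 0 members and 0 pathway genes passed after acute CS and 0 members in the interaction, where 0.34% and 0% of all genes did. The values were -0.97 for Stab1, -1.44 for Stab2, 3.97 for Cd44, -1.22 for Ptx3, 1.497 for Cemip2 and -1.54 for Stab2 in the interaction. Deviations of same-labelled libraries from their group means correlated at 0.07 in the acute groups and at -0.04, 0.03 and 0.01 in the chronic groups. With 2 libraries in each acute group, every acute pair gives that value up to its sign. Such correlations cannot show whether same-labelled libraries share more than the sex label. The block uses up degrees of freedom among few libraries. At levels of a few CPM, as for the synthases, the acute log2 fold change of Has1 had a range of -7.02 to -0.86 over its alternatives and none passed.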
